A study of Mus musculus with 8 samples.

Results

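The genes described here belong to the insulin-like growth factor (IGF) system: 4 IGF binding proteins (Igfbp2, Igfbp3, Igfbp4 and Igfbp5), the growth factor Igf1, the receptors Igf1r and Igf2r, and the Igf2 mRNA-binding proteins Igf2bp1, Igf2bp2 and Igf2bp3. The array names 16593 genes in all. They were selected on the measured difference between neurons and stem cells, since Igfbp2 has the deepest fall among genes above background on every array, so their own differences are given as a description with no p-value. Of the 10, 9 were matched to a probe, 13 probes in all among 25697, and Igf2bp2 was not analysed here. All 13 probes are reported.

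The neurons were 3 samples (Neuron 1 to 3) made from neural stem cells by 4 days in N2B27, a serum-free differentiation medium, and replating in Neurobasal with B27. Cell sorting kept those that expressed RedStar, a fluorescent reporter under the Tau promoter. The cells they were set against were 5 samples of neural stem cells (NSC 1 to 5), which carried no RedStar signal and grew in Euromed-N with N2, FGF2 and EGF; both kinds are of strain C57BL/6 and descend from mouse embryonic stem cells. Total RNA was labelled with biotin and hybridised to Illumina bead arrays (MouseRef-8 v2.0). The sort keeps whatever cells use the Tau promoter, and no label says that the replicates are separate cultures. A p-value here therefore sets a difference against the spread of these samples, and that spread may be technical. N2 and B27 are supplements that contain insulin, a hormone that at high concentration also acts on the IGF1 receptor. Medium, growth factors and sorting differed between the groups along with the cell type, and these cannot be told apart. In such bulk RNA, fewer cells of a type and less RNA per cell cannot be told apart either.

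IGF1 and IGF2 are secreted hormones that activate the IGF1 receptor, a tyrosine kinase whose adaptors switch on the PI3K-Akt and Ras-MAPK cascades and so promote growth, survival and division. IGF binding proteins hold the hormones outside the cell and limit or prolong their action, while the IGF2 receptor takes IGF2 up for destruction in lysosomes. Neural stem cells need this input to survive and proliferate, and Igfbp2 is known as a gene of radial glia and embryonic neuroepithelium. The Igf2bp proteins are a separate family, named for their binding to Igf2 mRNA in the cytoplasm.

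The arrays had median signals of 80.3 to 84.7, with 36.5% to 39.7% of their probes above background (a detection p below 0.01). Differences are neuron minus NSC on a log2 scale after background correction and quantile normalization, and a gene is read at its brightest tested probe. Among 7407 tested genes, limma called 64.6% at an adjusted p below 0.05, with 35.4% higher in neurons and 29.2% lower, and 61.1% of genes had arrays of the groups that did not overlap. Of the calls, 54.8% were higher in neurons, or 66.1% with median scaling, under which the median over all genes was 0.23 in place of 0.06. All 11 tested markers of neurons were higher, led by Crmp1 (at least 17.4-fold) and Mapt, the gene of Tau itself (at least 17.1-fold). Of these, 8 were above background on no NSC array, Crmp1 and Mapt among them, so for those 8 only a rise could have appeared. Yet Tubb3, Stmn2, Elavl3, Elavl4, Snap25, Syt1, Nefl and Nefm of the 20 neuron markers were above background on no array. A fold written as "at least" sets a group with no array above background at the dimmest level that counts as detected.

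The windows of 250 bases before a RefSeq transcript start are shown for the 4 binding proteins, because 3 of them were called lower in neurons, a call made for 29.2% of all tested genes, and Igfbp5 was not called. RefSeq promoter records (build GRCm38.p6) matched 9 of the 10 genes, and of the windows listed for Igfbp2 the one at the gene's first base is shown. The Igfbp5 window also lies at its gene's first base, but those of Igfbp3 and Igfbp4 do not. Capitals mark GC boxes (GGGCGG) and TATA boxes (TATAAA), searched on both strands; the first motif was in 32.75% and the second in 12.37% of all 32841 windows of that length.
Igfbp2, chr1:72824230-72824479, plus strand: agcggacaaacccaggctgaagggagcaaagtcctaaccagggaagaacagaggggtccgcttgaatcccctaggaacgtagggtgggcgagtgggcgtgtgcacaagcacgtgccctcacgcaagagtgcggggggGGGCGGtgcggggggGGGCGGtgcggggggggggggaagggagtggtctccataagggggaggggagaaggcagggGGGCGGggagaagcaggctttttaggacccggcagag
Igfbp3, chr11:7213924-7214173, minus strand: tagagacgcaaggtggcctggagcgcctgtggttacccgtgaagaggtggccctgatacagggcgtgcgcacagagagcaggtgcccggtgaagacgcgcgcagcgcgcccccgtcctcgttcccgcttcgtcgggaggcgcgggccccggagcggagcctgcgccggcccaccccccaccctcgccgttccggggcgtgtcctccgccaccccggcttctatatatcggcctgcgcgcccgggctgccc
Igfbp4, chr11:99040994-99041243, plus strand: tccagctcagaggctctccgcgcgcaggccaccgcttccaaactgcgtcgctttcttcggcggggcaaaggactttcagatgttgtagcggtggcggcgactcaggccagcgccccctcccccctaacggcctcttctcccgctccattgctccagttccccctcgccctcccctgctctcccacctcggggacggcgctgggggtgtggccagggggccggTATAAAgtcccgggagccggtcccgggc
Igfbp5, chr1:72874866-72875115, minus strand: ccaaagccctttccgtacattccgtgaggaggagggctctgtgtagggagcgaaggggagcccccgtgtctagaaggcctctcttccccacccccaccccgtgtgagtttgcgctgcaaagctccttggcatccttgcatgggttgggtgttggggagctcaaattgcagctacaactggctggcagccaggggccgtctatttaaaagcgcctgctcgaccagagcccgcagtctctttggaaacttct
Igfbp2 has 3 GC boxes, which do not overlap, and no TATA box. The Igfbp4 window holds 1 TATA box, which begins 28 bases before the start, and no GC box. Neither motif is in the windows of Igfbp3 and Igfbp5. The GC content was 67.2% for Igfbp2, 73.2% for Igfbp3, 69.2% for Igfbp4 and 58.8% for Igfbp5, against a median of 52.4% over all windows. Igfbp3 had 32 CG dinucleotides, Igfbp4 22, Igfbp2 14 and Igfbp5 10, where the median window had 6. A match is a description of the letters and not a site. In the RefSeq order of this assembly, Igfbp2 and Igfbp5 are neighbouring protein-coding genes on chromosome 1.

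The ligand Igf1 was dim in both groups. Its probe read 5.33, 5.06 and 4.68 in Neuron 1 to 3, against 5.19, 5.48, 5.30, 5.20 and 5.21 in NSC 1 to 5, and it was above background on 2 neuron and 4 NSC arrays. The groups overlapped, since Neuron 1 read higher than 4 of the 5 NSC arrays and Neuron 3 read lowest of all. The difference was -0.25 (SE 0.14), with means of 5.02 ± 0.33 in neurons and 5.28 ± 0.12 in NSCs (SD, n = 3 and n = 5). It was -0.40 without Neuron 1 and -0.08 without Neuron 3, and limma called it in the fit without Neuron 1. Igf2, the second ligand and the hormone most used in the embryo, is not among the 10 and was tested. It read 5.47, 4.94 and 5.35 in neurons, against 5.95, 5.83, 5.89, 6.13 and 5.70 in NSCs, all NSC arrays above all neuron arrays. Igf2 was dim too, above background on 2 neuron arrays and all 5 NSC arrays. Its difference was -0.65 (SE 0.14, limma adjusted p = 0.00183), or -0.29 with no background correction.

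Both receptors were lower in neurons. Igf1r, the signalling receptor, read 7.98, 7.98 and 7.94 in neurons, against 8.50, 8.36, 8.47, 8.52 and 8.35 in NSCs. The groups did not overlap, and every neuron array read below every NSC array. Its mean was 7.97 ± 0.02 in neurons and 8.44 ± 0.08 in NSCs (SD, n = 3 and n = 5), a difference of -0.47 (SE 0.09) or 1.39-fold. With median scaling it was -0.25 and no longer called. The raw signals did overlap: 332.8, 353.1 and 313.9 in neurons, against 395.8, 349.8, 409.0, 394.9 and 366.5 in NSCs, where Neuron 2 lay above NSC 2. The insulin receptor gene Insr, whose protein can pair with that of Igf1r, was above background on no array.

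Igf2r, the scavenging receptor, was above background on all 5 NSC arrays and on no neuron array, with both of its probes. The brighter probe read 4.31, 4.35 and 4.45 in neurons, against 6.01, 5.89, 6.21, 6.17 and 6.17 in NSCs. Every NSC array was above every neuron array. Its neuron level was at least 1.97-fold lower, the fitted difference being -1.72 (SE 0.10), or -0.87 with no background correction. The second probe read 4.36, 4.60 and 4.43 in neurons, against 5.77, 6.14, 5.77, 5.48 and 5.40 in NSCs, at least 1.51-fold lower in neurons.

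**Figure D1:**
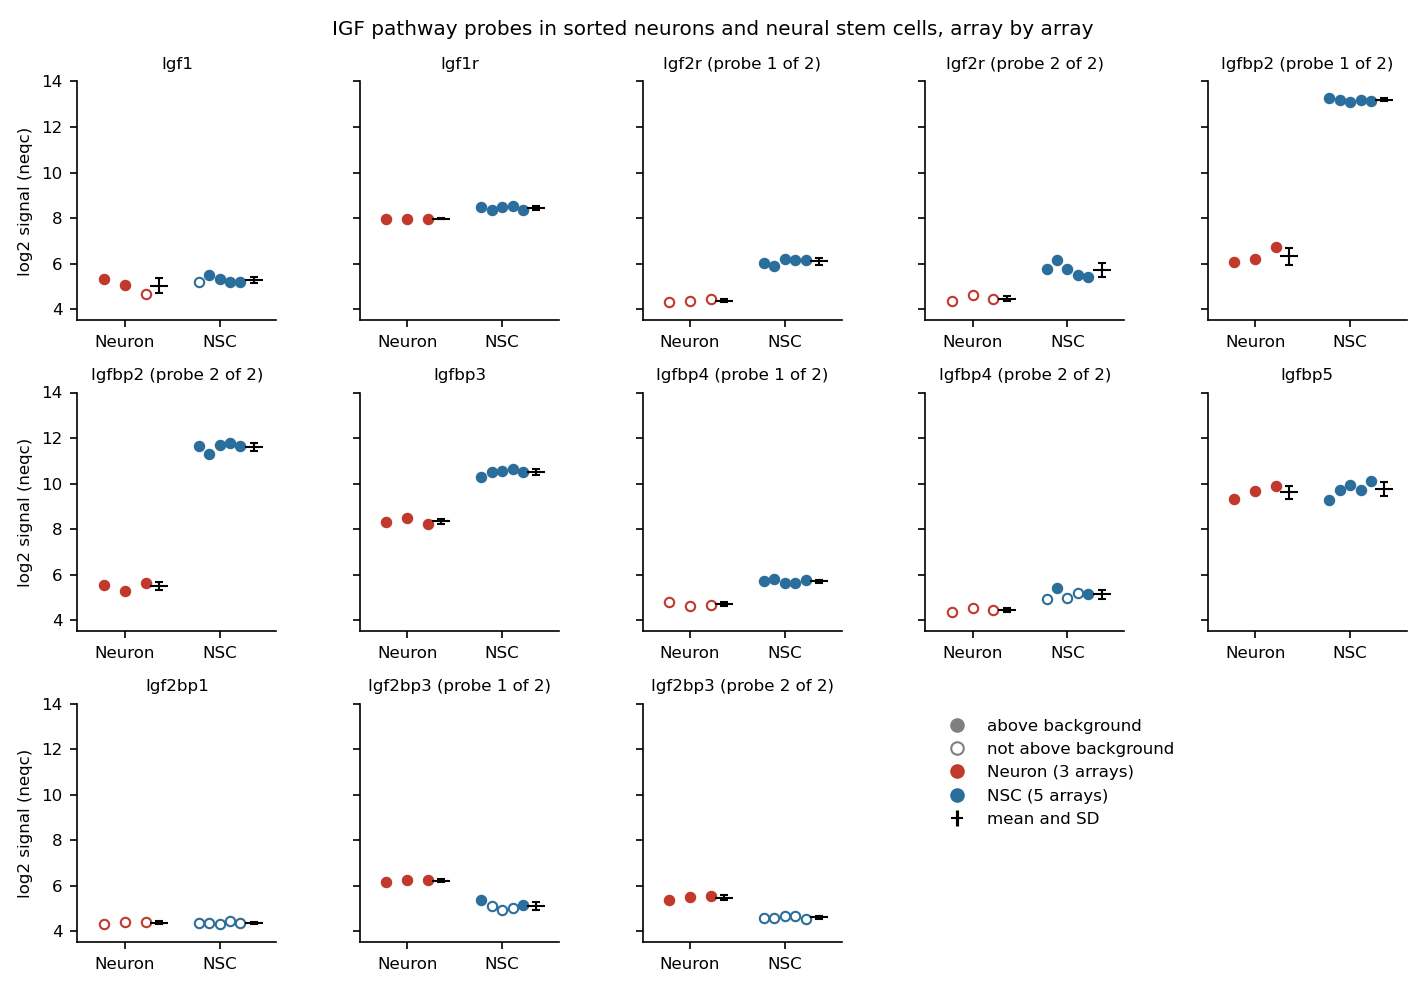
Background-corrected log2 signal of the 13 probes on each array, with the 3 neuron arrays left of the 5 NSC arrays in each panel, bars for the group means, and open points where the probe was not above background. Igfbp2 is near 13 in NSCs and near 6 in neurons, Igfbp5 overlaps, and both Igf2bp3 probes are higher in neurons.

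Igfbp2 was lower in neurons on both of its probes. The brighter probe read 6.05, 6.18 and 6.75 in neurons, against 13.30, 13.18, 13.11, 13.21 and 13.16 in NSCs. The groups lay far apart, and Neuron 3 was the highest of the neuron arrays. The raw bead signal was 128.8, 143.5 and 167.5 in neurons, against 10524.0, 9246.5, 9386.5, 9319.6 and 9174.1 in NSCs. Means were 6.33 ± 0.37 in neurons and 13.19 ± 0.07 in NSCs (SD, n = 3 and n = 5), a difference of -6.86 (SE 0.15), or 117-fold. The gene was still above background on all 3 neuron arrays, so this fold is not a bound. The second probe read 5.54, 5.28 and 5.62 in neurons, against 11.64, 11.29, 11.68, 11.79 and 11.63 in NSCs. Its difference was -6.13 (SE 0.13), or 70.0-fold, with all 3 neuron arrays below all 5 NSC arrays, as on the first. Among 5812 genes whose probe was above background on all 8 arrays it ranked 1 by fall, with Cenpa next at -6.08. Among all tested genes Prc1 (-7.30) and Pbk (-7.05), above background on no neuron array, fell further in the fit.

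The other binding proteins had smaller differences. Igfbp3, the main carrier in blood, read 8.30, 8.47 and 8.23 in neurons, against 10.30, 10.53, 10.53, 10.64 and 10.52 in NSCs. The groups lay apart, with means of 8.33 ± 0.12 in neurons and 10.50 ± 0.12 in NSCs (SD, n = 3 and n = 5) and a difference of -2.17 (SE 0.11) or 4.51-fold. Igfbp4, which inhibits IGF action until it is cleaved, was dim: 4.81, 4.61 and 4.67 in neurons, against 5.73, 5.79, 5.61, 5.63 and 5.74 in NSCs. It was above background on all 5 NSC arrays and no neuron array, at least 1.50-fold lower in neurons, and its fitted difference was -1.003 (SE 0.09), or -0.43 with no background correction. Its second probe, above background on 2 NSC arrays, did not pass the filter and gives a bound of only 1.02-fold.

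Igfbp5, which binds the matrix as well as IGFs, read 9.30, 9.66 and 9.89 in neurons, against 9.30, 9.71, 9.95, 9.70 and 10.09 in NSCs. The groups overlapped, each with an array at 9.30. The means were 9.61 ± 0.30 in neurons and 9.75 ± 0.30 in NSCs (SD, n = 3 and n = 5), a difference of -0.14 (SE 0.18), which was 0.07 with median scaling and 0.02 without Neuron 1. The neighbouring genes Igfbp2 and Igfbp5 thus had differences of -6.86 and -0.14 on the same arrays.

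Igf2bp3, which binds and stabilizes growth-related mRNAs, was the 1 tested member called higher in neurons. Its brighter probe read 6.16, 6.24 and 6.26 in neurons, against 5.38, 5.10, 4.93, 4.99 and 5.13 in NSCs. It was above background on all 3 neuron arrays and on NSC 1 and NSC 5 only. The difference was 1.11 (SE 0.11) or 2.16-fold, with means of 6.22 ± 0.05 in neurons and 5.11 ± 0.17 in NSCs (SD, n = 3 and n = 5), and 0.52 with no background correction. The second probe read 5.37, 5.49 and 5.56 in neurons, against 4.59, 4.56, 4.67, 4.65 and 4.52 in NSCs, where no NSC array was above background, at least 1.21-fold higher in neurons. Igf2bp1, another member of that family, was above background on no array.

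Of the 10 genes, 8 were tested: 5 were called lower, 1 higher and 2 were not called, and 6 had groups that did not overlap. Over all tested genes 29.2% were called lower, 35.4% higher, and 61.1% had groups that did not overlap. Only NSC arrays carried Igfbp4 and Igf2r past the filter, so no rise could have appeared for them. Igf2bp3, above background on 2 NSC arrays, needed its neuron arrays, where it was higher, to reach the 3 required. The counts carry no test because the same difference chose the genes. Of the 8, 7 were below 0 in the fit, with a median of -0.74, where the median of all tested genes was 0.06. The same limits hold for that median, which rests in part on the fitted value of Igfbp4, so nothing is read from it. From the lowest signed difference to the highest, the members above background in both groups ran Igfbp2, Igfbp3, Igf1r, Igf1, Igfbp5 and Igf2bp3. Igf1r and Igf1 (gap of 0.22, 1.31 standard errors) and Igf1 and Igfbp5 (0.12, 0.51 standard errors) lay close together. Igf2r and Igfbp4 have only a bound in neurons and no place in that order.

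Markers of other cell types also differed between the groups, and their part in these differences was not tested. Beside the counts below, 35.4% of all tested genes were called higher in neurons and 29.2% lower. The sums below take in every listed gene with a probe, those at background too, so a bright gene can carry them. On the log2 scale the brightest in NSCs averaged 13.77 for astrocytes (Slc1a3), 8.17 for endothelium (Egfl7) and 11.12 for neuron markers (Map2). Among NSC and radial glia markers Egfr, which was higher in neurons, was the brightest there at 12.08. Of 9 tested astrocyte markers 7 were lower in neurons, 1 was higher and 1 not called, with a summed linear level over the 15 listed of 5105 to 5833 in neurons and 18537 to 20069 in NSCs. No array detected Mlc1, Glul, Apoe, Aqp4 or Gfap. Of the 9, 4 were above background on no neuron array, so for those only a fall could have appeared. The same holds for 1 tested NSC and radial glia marker, 1 endothelial and 2 pluripotency markers. Of 13 tested NSC and radial glia markers 8 were lower, 3 higher and 2 not called, summing to 7633 to 8125 in neurons and 8957 to 9680 in NSCs, with Sox1, Pax6, Prom1, Nr2e1, Msi1 and Gli3 above background on no array. Of 9 tested oligodendrocyte lineage markers 7 were higher, 1 lower and 1 not called, summing to 29055 to 31799 in neurons and 20957 to 24559 in NSCs. Gpr17, Fa2h and Pdgfra, each above background on every neuron array but on none of the NSC arrays, were at least 8.25-fold, 4.81-fold and 4.04-fold higher. For these 3 only a rise could have appeared. The bright Olig1 and Bcas1 differed by 0.51 and 0.24, Opalin was the 1 lower (-0.77), and Cspg4 was not called. Mbp, Mog and Mag were above background on no array. The 20 listed neuron markers summed to 8732 to 10573 in neurons and 2475 to 3537 in NSCs. Endothelial markers (0 higher, 2 lower, 1 not called) summed to 219 to 272 in neurons and 504 to 535 in NSCs, with Pecam1 and Cdh5 above background on no array. Pluripotency markers (0 higher, 3 lower, 2 not called) summed to 315 to 330 in neurons and 412 to 443 in NSCs, with Pou5f1 and Nanog above background on no array. Mesenchymal markers (1 higher, 1 lower, 1 not called) summed to 498 to 576 in neurons and 441 to 477 in NSCs, and Col1a1, Col3a1 and Pdgfrb were above background on no array. The 1 tested microglia marker was not called, and no other of that list was above background on any array. That list summed to 228 to 238 in neurons and 226 to 246 in NSCs.

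**Figure D2:**
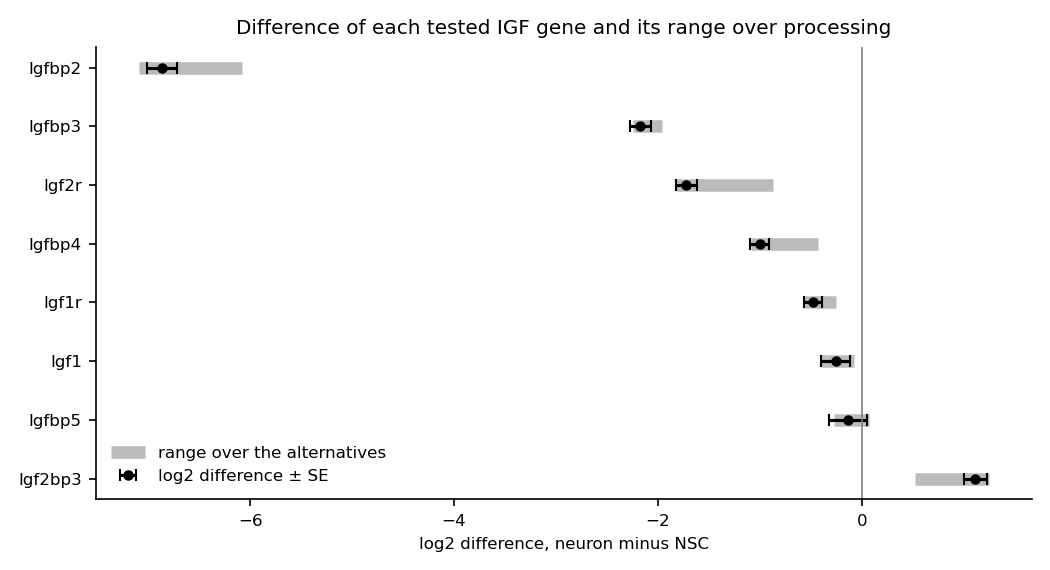
Log2 difference, neuron minus NSC, of the 8 tested members with its standard error, ordered from Igfbp2 to Igf2bp3. The grey range covers all alternatives, those of processing and those that leave out an array. Igfbp2 stays between -7.09 and -6.08, and Igfbp5 crosses 0.

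**Figure D3:**
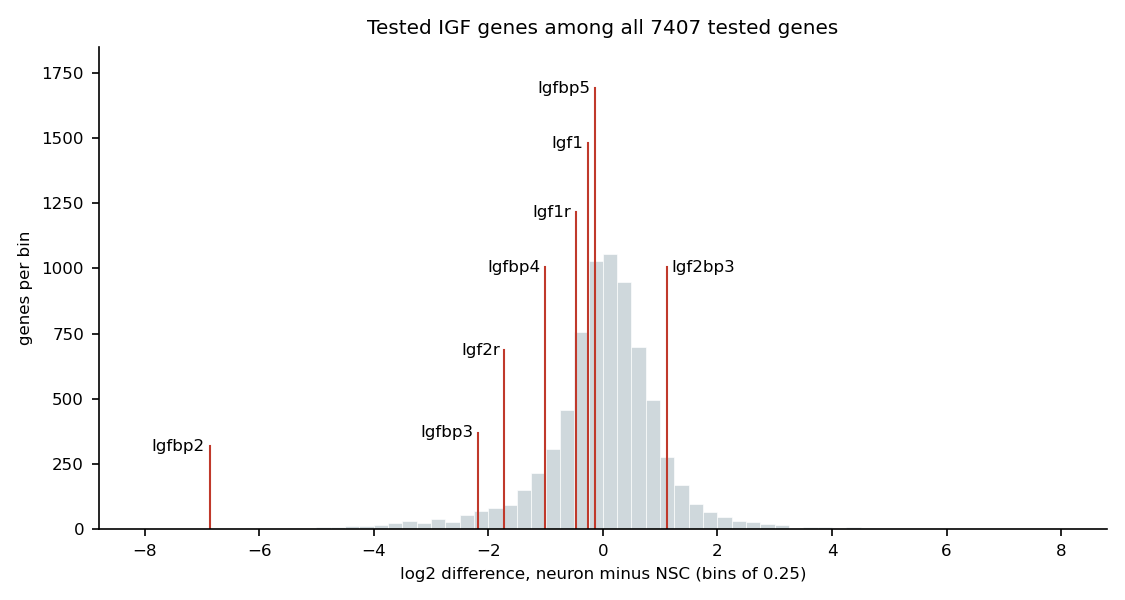
Histogram of the log2 differences of all 7407 tested genes in bins of 0.25, with the 8 tested members marked by lines whose height carries no value. Igfbp2 at -6.86 lies in the far left tail, and Igfbp5 and Igf1 lie in the central bulk.

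Profiles over the 8 arrays were also compared, each taken as log2 value minus its own NSC mean. The genes most like Igfbp2 were Pbk, Cdca3, Cdc20, Prc1 and Kif2c. All 5 were above background on every NSC array and on no neuron array, so their neuron values are at background and neither the order among them nor their distance from Igfbp2 is a measurement. The genes most like Igf2bp3 were Slit2, Zbtb7c, Mvb12b, Mkrn1 and Lpin1. Of these, Zbtb7c, Mvb12b and Lpin1 were above background on all 8 arrays, with root mean square differences of 0.0709, 0.0804 and 0.0956 on the log2 scale. Slit2 and Mkrn1 were above background on no NSC array. Igf2bp3 itself was above background on only 2 of the 5 NSC arrays. These distances and their order thus also rest in part on values at background.

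Further genes of the pathway, 139 in 8 lists, were examined by role. Of these, 117 were matched to a probe, 80 were above background somewhere and 71 were tested: limma called 33 higher in neurons, 19 lower and 19 not. Only neuron arrays carried 1 of the 71 (Grb10) past the filter, so no fall could have appeared for it. Only NSC arrays carried 3 (Mmp2, Map2k1 and Cd44), for which no rise could have appeared. Their p-values below, and their part in the counts, carry that limit. The 73.2% called compares with 64.6% of all tested genes, of which 35.4% were called higher and 29.2% lower. The median difference was 0.13 where that of all genes was 0.06. The lists are short, and those shares stand beside each count below, so no direction is read from a list count.

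Of 6 tested genes listed as proteases of binding proteins or their inhibitors, 5 were lower in neurons and 1 was higher. Their median was -0.70, and 29.2% of all tested genes were called lower. With median scaling or with detection on all 8 arrays 3 of the list were called lower. The 5 mix roles: they include Htra2 (-0.47), a relative of the protease gene Htra1, and the inhibitor gene Stc2 (-0.33), whose groups overlapped. Adam12, a metalloprotease whose human form cleaves IGF binding proteins, read 6.24, 5.73 and 5.74 in neurons, against 8.31, 8.54, 8.49, 8.26 and 8.01 in NSCs. The groups lay apart (-2.42, SE 0.15, limma adjusted p = 1.40e-07). The matrix protease gene Mmp2 was above background on no neuron array and was at least 2.18-fold lower there (limma adjusted p = 3.74e-07; fitted -1.68, or -0.79 with no background correction). Adam9, a related protease, was higher by 0.76 (limma adjusted p = 0.00143). Of the 10 other ligands, receptors and binding proteins with a probe, Ins2, Insr, Insrr, Igfbp1, Igfbp6, Igfbpl1, Igfals and Kazald1 were above background on no array. Besides Igf2, only Igfbp7 was tested, and it was not called (-0.37).

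Of 13 tested genes listed as adaptors or regulators of the IGF1 receptor, 9 were higher in neurons, 2 lower and 2 not called. Their median was 0.43, and 35.4% of all tested genes were called higher. Not all of the 13 are adaptors: the 9 include the phosphatase genes Ptpn1 (0.42) and Ptpn11 (0.43) and the signalling inhibitor gene Socs3 (0.64). Grb10, an imprinted adaptor that binds the active receptor and dampens it, read 8.30, 8.53 and 9.23 in neurons, against 4.32, 4.42, 4.47, 4.41 and 4.29 in NSCs. No NSC array was above background, and neurons were at least 11.3-fold higher (limma adjusted p = 3.42e-09; fitted 4.30, or 2.76 with no background correction). Crkl, an adaptor of the Crk family, was higher by 0.92 (limma adjusted p = 0.000169). Shc1, which links the receptor to Ras, read 9.26, 9.37 and 9.14 in neurons, against 10.95, 10.95, 11.03, 10.99 and 11.06 in NSCs. Its groups lay apart, with a difference of -1.74 (SE 0.09, limma adjusted p = 2.90e-08) on the only 1 of its 4 probes that was above background. Grb14, a relative of Grb10, was lower by 1.03 (limma adjusted p = 0.000207), or by 0.47 with no background correction, and was above background on 1 neuron array; its second probe was lower by 0.51.

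Of 10 tested PI3K and Akt genes, 6 were higher, 2 lower and 2 not called, with a median of 0.58. Over all tested genes 35.4% were called higher. Akt1, Akt2 and Pik3cd were above background on no array. Pik3r1, the regulatory subunit gene of PI3K, read 13.16, 13.09 and 13.11 in neurons, against 11.87, 11.75, 11.98, 11.92 and 11.80 in NSCs. Every neuron array was higher (1.26, SE 0.09, limma adjusted p = 4.62e-07), but its other probes differed by 1.31 and 0.15, and the second of these was not called. Pik3cb, a catalytic subunit gene, was higher by 1.25 (SE 0.18, limma adjusted p = 0.000103). Phlpp1, a phosphatase that turns Akt off, was lower by 0.61 (limma adjusted p = 0.00174), or by 0.38 with no background correction. Pik3r2 was lower by 0.28 (limma adjusted p = 0.0142), a call that median scaling (-0.03, adjusted p = 0.781) and the mean of its probes (-0.12, adjusted p = 0.209) ended. It was also lost without Neuron 2 when detection was required on 2 arrays, an alternative added after seeing the data (-0.27, adjusted p = 0.0506).

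Of 14 tested mTOR and translation genes, 4 were higher, 3 lower and 7 not called, with a median of -0.03. These counts moved with the scaling, to 5 higher and 1 lower with median scaling and 2 higher and 3 lower with cyclic loess, and to 2 higher and 2 lower without Neuron 3. Rictor, the scaffold of mTOR complex 2, was higher by 1.20 (limma adjusted p = 4.48e-05), and Mapkap1, which encodes its partner Sin1, by 0.36 (limma adjusted p = 0.00738), or 0.60 with median scaling. Rictor has 3 probes, and those other than its brightest were not tested. Eif4ebp1, a translation repressor that mTOR complex 1 inactivates, was lower by 0.93 (limma adjusted p = 0.00704), although NSC 3 at 7.43 overlapped the neurons at 7.43, 7.54 and 6.87. Tsc1, a brake on mTOR, was lower by 0.39 (limma adjusted p = 0.00646), or by 0.18 with no background correction, and by 0.25 with median scaling, which ended the call (adjusted p = 0.0746).

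Of 10 tested FoxO factors and targets, 9 were higher in neurons and Sesn2 was lower, with a median of 0.78. Over all tested genes 35.4% were called higher. Targets of FoxO can rise when Akt is inactive, but the activity of Akt was not measured. Txnip, an inhibitor of thioredoxin, read 9.97, 10.003 and 10.06 in neurons, against 7.90, 7.92, 7.84, 7.96 and 7.95 in NSCs. All neuron arrays lay above all NSC arrays (2.10, SE 0.09, limma adjusted p = 3.34e-09). Bcl6, a transcriptional repressor, was higher by 1.59 (limma adjusted p = 3.08e-06) and Sesn2, a stress-induced regulator of mTOR, was lower by 1.11 (limma adjusted p = 2.21e-05), or by 0.48 on its second probe. Foxo3, Foxo4 and Foxo6 were above background on no array, and Foxo1, the only factor of the family tested, was higher by 0.48. The listed targets Klf15, Pck1, G6pc and Pdk4 were also above background on no array. Many of these genes are also induced by other signals.

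**Figure D4:**
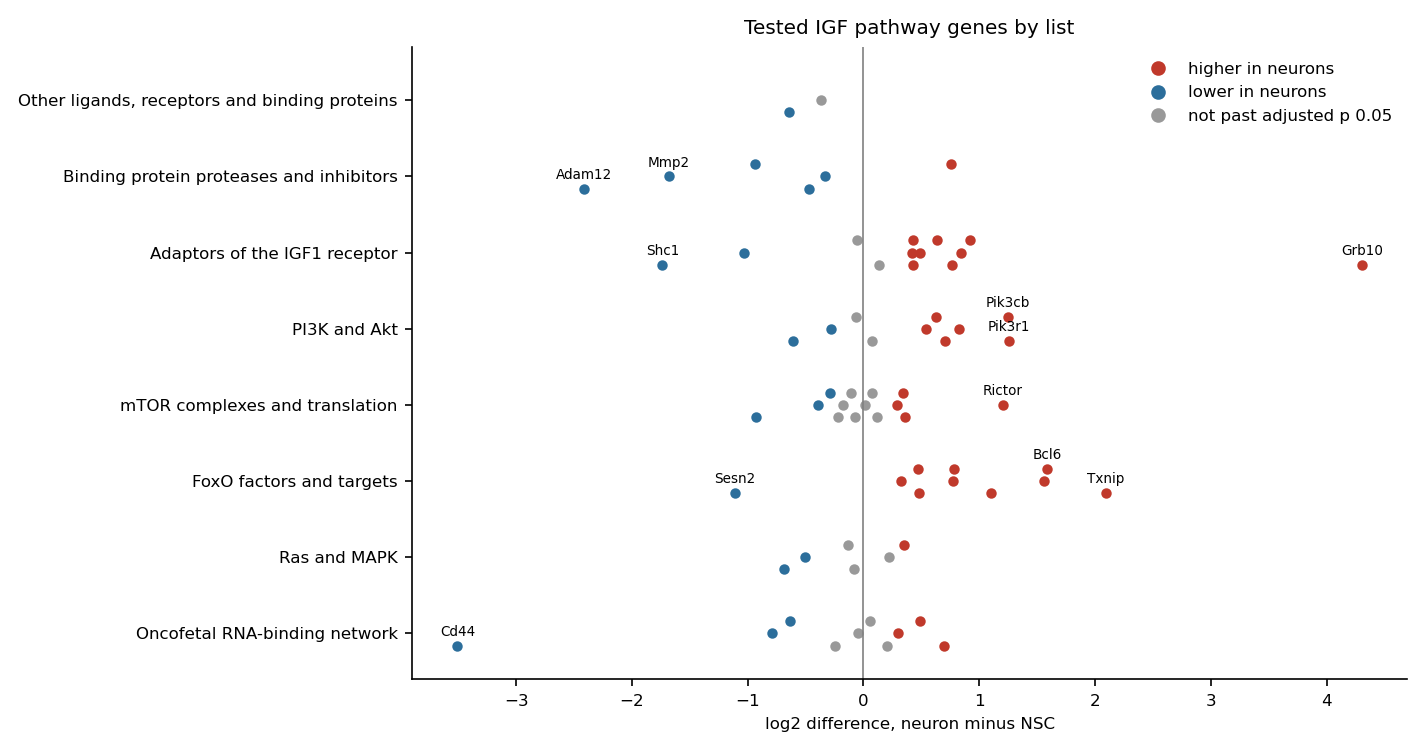
Log2 difference, neuron minus NSC, of each tested gene in the 8 pathway lists, coloured by whether limma called it higher, lower or neither. The median is 0.78 in the FoxO list and -0.70 among the proteases and inhibitors.

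Of 6 tested Ras and MAPK genes, 1 was higher, 2 lower and 3 not called, with a median of -0.11. Without Neuron 1 or Neuron 3 none was higher, without Neuron 3 1 was lower, and 2 were higher without NSC 3 or with no background correction. Map2k2, a kinase that activates Erk, was lower by 0.69 (limma adjusted p = 4.71e-05) on the brighter of its 2 probes, the other not being tested. Map2k1, its close relative, was above background on 4 NSC arrays and no neuron array, and at least 1.23-fold lower (limma adjusted p = 0.0105; fitted -0.50, or -0.21 with no background correction, and adjusted p = 0.0510 without Neuron 3). Rasa1, which switches Ras off, was higher by 0.35 (limma adjusted p = 0.0136), a call lost without Neuron 1 (adjusted p = 0.0506) or Neuron 3 (adjusted p = 0.0654).

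Of 10 tested genes of the RNA-binding network around the Igf2bp proteins, 3 were higher (1 without Neuron 1 or Neuron 3), 3 lower and 4 not called, with a median of 0.01, while Lin28a and Hmga2, named beside Igf2bp proteins in fetal and tumour cells, were above background on no array. Cd44, a hyaluronan receptor whose mRNA is bound by IGF2BP3 in human cells, read 4.93, 4.69 and 4.68 in neurons, against 8.22, 8.26, 8.46, 8.21 and 8.19 in NSCs. It was above background on no neuron array and at least 8.92-fold lower there (limma adjusted p = 2.93e-10; fitted -3.51, or -2.13 with no background correction), on 1 of its 6 probes, the others not being tested. Myc, whose mRNA is stabilized by IGF2BP proteins in human cells, was lower by 0.79 (limma adjusted p = 0.000733), or by 0.40 with no background correction. The RNA helicase gene Dhx9 was higher by 0.70 (limma adjusted p = 0.00643), or 0.44 with no background correction, with NSC 1 at 6.68 above Neuron 1 at 6.66. Syncrip, an RNA-binding protein of the same complexes, was higher by 0.49 (limma adjusted p = 0.0130), a call lost without Neuron 1 (adjusted p = 0.0574) or Neuron 3 (adjusted p = 0.0649). The further probes of Myc, Dhx9 and Syncrip were not tested.

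**Figure D5:**
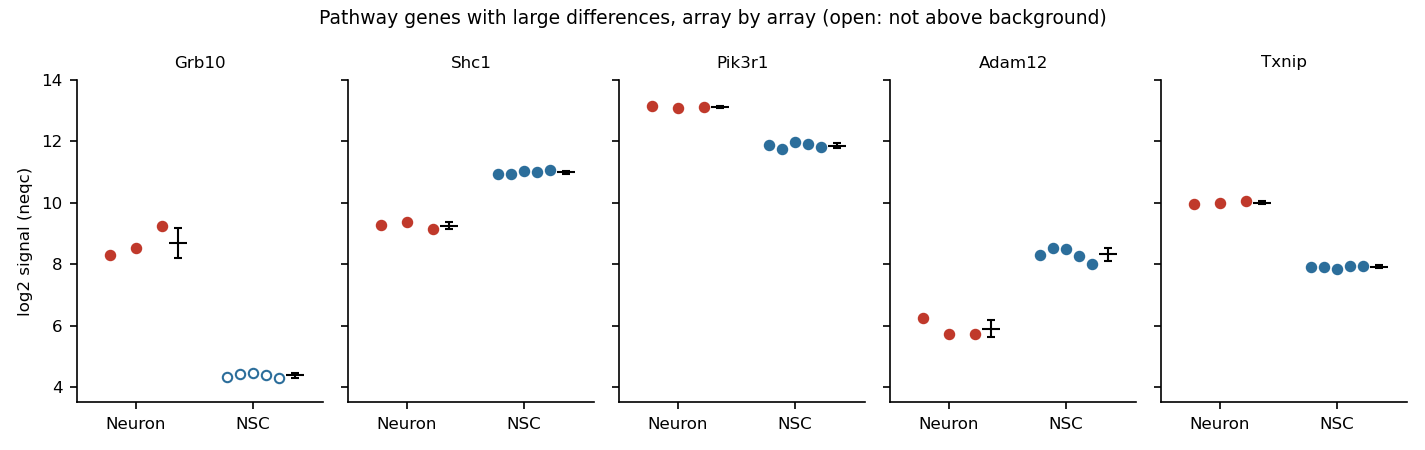
Log2 signal of Grb10, Shc1, Pik3r1, Adam12 and Txnip on each array, 3 neuron arrays left of 5 NSC arrays, with bars for the group means and open points where the probe was not above background. Grb10 is open on every NSC array, and in each panel the groups lie apart.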

How the data were processed

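The authors deposited bead-averaged intensities, neither background-corrected nor scaled, with a detection score per probe, a fraction from 0 to 1; 1 minus it served as the detection p. The deposited log2 values equal the quantile-normalized log2 intensities to within 5e-09. Per the submitters' processing notes limma was used. The software that read the scanner is not named in the labels.

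From the intensities, limma 3.58.1 in R 4.3.3 corrected background (offset of 16), quantile normalized and took log2, as neqc does. A probe was tested if above background (detection p below 0.01) on 3 or more arrays, which left 10499, with lmFit and eBayes, group as the only term, and Benjamini-Hochberg adjustment over all of them. Of the probes, 23978 have 1 gene, 0 several and 1719 none. By gene identifier 23962 were found in the reference table, and 0 symbols changed. The gene is read at its brightest tested probe. The named genes are all 10 members, the 2 called genes that changed most in each direction per list, Igf2, Insr and Igfbpl1, and the 5 closest profiles; others were named after their values were seen. Members and lists were chosen with earlier results of these data known. Alternatives were other background corrections, scalings, filters, variance model, probe summary, the replicate block, the authors' values and leaving out each array. The procedure was tested on simulated data. All arrays were on 1 chip and positions follow the group, so both cannot be told apart. The number of arrays limits the precision. The replicate numbers did not pair samples (correlations of same-numbered deviations of -0.017, 0.014 and 0.015). Some genes of the pathway lists are not reported here.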

Additional observations from a re-analysis of the deposited data

Results flagged for a closer look

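Of 37 NSC groups examined, 1 held an array far from the others: Cd44 read 8.46 on NSC 3 and 8.19 to 8.26 on the other 4 NSC arrays, all 5 above background, while no neuron array was. Chance alone flags about 1 in 20 such groups.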

How the results depend on the processing

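The difference of Igfbp2 was -6.86 and lay between -7.09 and -6.75 when any 1 array was left out. It was -6.08 with no background correction and with the authors' values, -6.35 with an offset of 50 and -6.50 with the mean of its probes. With detection required on all 8 arrays 3 members were called lower and 0 higher, because fewer members were tested (4 of 8). Leaving out any 1 array gave 5 to 6 members called lower (6 without Neuron 1) and 1 higher, 26 to 33 pathway genes higher, 16 to 19 lower, and 4100 to 4665 genes in all. With detection on 2 arrays when a neuron array was left out, chosen after seeing the data, 4412 to 4469 genes were called. By list, 1 PI3K and Akt gene was lower with median scaling or the mean of the probes, and 1 adaptor with detection on all 8 arrays. Across the other alternatives 29 to 36 pathway genes were higher and 13 to 19 lower. The replicate number as a block, which does not pair these samples, called 4332 among all tested genes, 29 pathway genes higher and 17 lower, and ended the calls of Pik3r2 (adjusted p = 0.0613), Mapkap1 (0.0519) and Rasa1 (0.0925), limma in each case. Differences were recomputed for the members and the genes the naming rule picked, and none of those called changed direction. The other genes printed were not recomputed. Igfbp5 and Igf2bp1, neither of them called, did change sign. Differences of dim probes are limited by their closeness to background: the offset shrinks them, and those of Igfbp4, Igf2r and Igf2bp3 were -0.43, -0.87 and 0.52 with no background correction.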

Other observations

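Further genes of the pathway lists, picked after their values were seen, were also higher in neurons. Fbxo32, a ubiquitin ligase gene of muscle wasting and a FoxO target, averaged 7.43 ± 0.24 in neurons and 5.87 ± 0.36 in NSCs (SD, n = 3 and n = 5; difference 1.56, limma adjusted p = 3.76e-05). Bcl2l11, which encodes the cell death protein Bim, was higher by 1.098 on its brightest probe (limma adjusted p = 5.26e-06) and by 1.28 on another, while a dim probe of it, above background on 3 NSC arrays and no neuron array, was lower by 0.36 (limma adjusted p = 0.0248). Between receptor and Akt, the docking protein gene Gab1 was higher by 0.84 (limma adjusted p = 1.67e-05), the kinase gene Pdpk1 by 0.82 (limma adjusted p = 2.04e-05) and Irs2, the insulin receptor substrate, by 0.49 (limma adjusted p = 0.00128). Lower in neurons was Htra1, a secreted serine protease that cleaves binding proteins, at -0.93 (limma adjusted p = 0.00071). That probe was dim in neurons, above background on 2 neuron arrays. A second probe, above background on 1 neuron array and 4 NSC arrays, was lower by 0.58.

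Among the promoter windows not printed, Igf1r had 42 CG dinucleotides and a GC content of 77.6%, and Igf2r had 27 and 69.2%, in the same RefSeq build.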
